A study of Homo sapiens with 8 samples.

Results

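The expression of 9 genes that move sodium, chloride, bicarbonate or calcium across membranes was examined in A549 cells, a human lung carcinoma line of epithelial origin. These were SLC8A1, SLC8B1, SLC12A2, SLC12A4, SLC12A7, SLC4A7, ATP2A2, ATP2B1 and ATP2B4. They were picked by symbol as carriers and pumps whose gradients depend on the sodium pump, with earlier results of these data known but no threshold on a measured value, and all 9 were found among the 19062 genes that the probes of the arrays could be matched to. The cells received EEDS, an ethanol extract of Descurainia sophia seeds, at 1.25, 5 or 20 μg/mL, or helveticoside, a cardiac glycoside contained in these seeds, at 3.75, 15 or 60 nM. Each agent had its own vehicle control, and all 8 groups were of the same line with no genetic change named in the labels. Each group was 1 one-colour array carrying RNA pooled from 3 cultures, so that no spread between cultures was measured. The sample labels give 48 h of drug incubation, in a text that describes the viability assay, whereas the methods give a shorter exposure for the arrays. The exposure time behind the values is therefore not settled.

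Cardiac glycosides bind the sodium pump, the Na,K-ATPase, which exports sodium and imports potassium at the expense of ATP. The sodium gradient it builds drives secondary carriers: sodium-calcium exchangers that extrude calcium, a cotransporter that loads the cell with sodium, potassium and chloride, and cotransporters that bring in bicarbonate with sodium. The potassium gradient drives the potassium-chloride cotransporters, through which cells lose salt and shrink. Calcium that enters the cytosol is removed by ATP-driven pumps of the plasma membrane and of the endoplasmic reticulum, and calcium taken up by mitochondria leaves them by a sodium-calcium exchanger of the inner membrane. What follows are transcript measurements, and neither ion levels nor transport was measured.

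A log2 signal below is the base 2 logarithm of the scanner software's background-subtracted intensity after quantile normalization of the 8 arrays, and a log2 ratio is the difference of log2 signal between a treated array and the vehicle control of its own series. Of the probes on an array, 63.4% to 64.9% were well above background in the EEDS series and 54.5% to 59.5% in the helveticoside series, and no probe spot was saturated. Repeated spots of a probe within an array differed by an SD of about 0.07 (EEDS) or 0.08 (helveticoside) on the log2 scale, which is the only error that 1 array can give and does not cover differences between cultures or arrays. In both series the spots of the control, low, middle and top dose arrays occupied separate ranges of scan positions in that order, so array position and dose cannot be told apart. All 8 markers of epithelial cells and of A549 that were examined, among them KRT8, KRT18 and EPCAM, were well above background on all 8 arrays. Their log2 ratios at 20 μg/mL EEDS and 60 nM helveticoside ran from -2.70 and -2.71 (CDH1, E-cadherin) to 0.62 and 0.53 (KRT7). Of 8 markers of other cell types, 5 were well above background on no array, whereas PTPRC, COL1A1 and DES were so on all 8, with log2 ratios from -0.25 to 0.80 at the top doses. The part of other cells in the results was not tested.

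At the top doses of both agents the same 5 of the 9 genes had lower signal than their control and the same 4 had higher signal. SLC8B1, ATP2A2, SLC12A2 and ATP2B4 were more than 2-fold lower at 20 μg/mL EEDS and at 60 nM helveticoside, and SLC12A4 was more than 2-fold higher at both. Arrays of pooled cultures cannot tell fewer cells with a transcript from less of it per cell. Over all genes, 14.5% were over 2-fold lower and 13.3% over 2-fold higher at 20 μg/mL EEDS, and 12.8% were lower and 10.8% higher at 60 nM helveticoside. A direction shared by both top doses was common among all genes, with 11.3% more than 2-fold lower at both and 9.26% as much higher at both, out of the 11495 genes whose signal was well above background throughout. The median log2 ratio of the 9 genes was -0.92 at 20 μg/mL EEDS and -0.83 at 60 nM helveticoside. The medians over all genes were 0.020 and -0.0042. At the middle doses the medians were -0.24 (EEDS) and -0.34 (helveticoside), and at the lowest doses they were -0.05 and -0.02. Both top-dose medians are the ratios of ATP2B1, whose controls differed most among the 9 genes. Against the other series' control the top-dose median became -1.30 with EEDS and -0.034 with helveticoside. With the mean of all probes it was -0.67 and -0.29. At the lowest doses SLC4A7, higher with EEDS, was the only one of the 9 past 2-fold, where 4.2% of all genes were higher by that much and 3.66% lower. At 3.75 nM helveticoside none of the 9 was past 2-fold by its brightest probe, against 3.37% of all genes higher and 4.3% lower. At 5 μg/mL EEDS, SLC8B1 and ATP2A2 were already more than 2-fold lower, against 8.46% of all genes lower and 7.35% higher, whereas none of the 9 had passed 2-fold at 15 nM helveticoside, where 8.05% of all genes were lower and 7.09% higher.

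**Figure D1:**
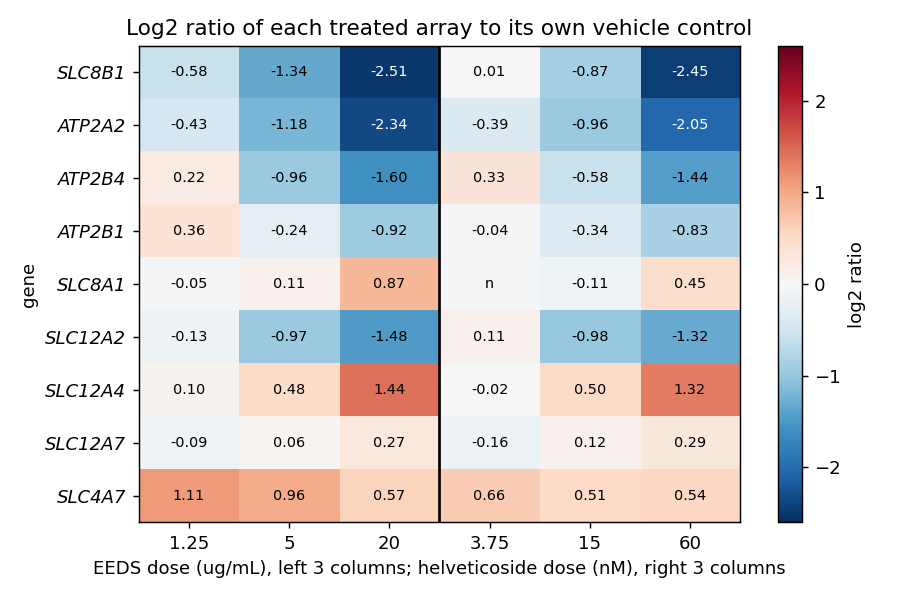
Log2 ratio of each treated array to the vehicle control of its own series for the 9 genes (rows), with EEDS doses (μg/mL) in the 3 columns on the left and helveticoside doses (nM) in the 3 columns on the right; red is higher than control, blue is lower, and n marks a value not well above background. SLC8B1, ATP2A2, ATP2B4 and SLC12A2 reach their lowest ratios and SLC12A4 its highest ratio in the top dose column of each agent, and SLC4A7 has its highest ratio at the lowest dose of each.

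Dose trends were fitted with limma over 19041 genes, as a slope of log2 signal per dose step for each agent, with the 8 arrays sharing 1 estimate of the spread about the lines. With EEDS, 3 of the 9 genes fell (SLC8B1, ATP2A2 and SLC12A2) and 0 rose at an adjusted p under 0.05, where 7.85% of all genes fell and 7.25% rose. With helveticoside, 2 of the 9 fell (SLC8B1 and ATP2A2) and 0 rose, where 5.8% of all genes fell and 5.47% rose. These calls changed when single arrays were left out, which also leaves fewer degrees of freedom. The EEDS slope of SLC8B1, for example, was -0.83 with and without the 15 nM array, but was called only with it. Without the EEDS control or the 20 μg/mL array none of the 9 was called for EEDS, and without the 3.75, 15 or 60 nM array or the 1.25 μg/mL array none was called for helveticoside. Without the 1.25 or 5 μg/mL or the 15 nM array, 1 (ATP2A2) was called for EEDS, and without the 60 nM array 2 were. For helveticoside 1 was called without the EEDS control, the 5 μg/mL or the 20 μg/mL array (ATP2A2) or without the helveticoside control (SLC8B1).

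**Figure D2:**
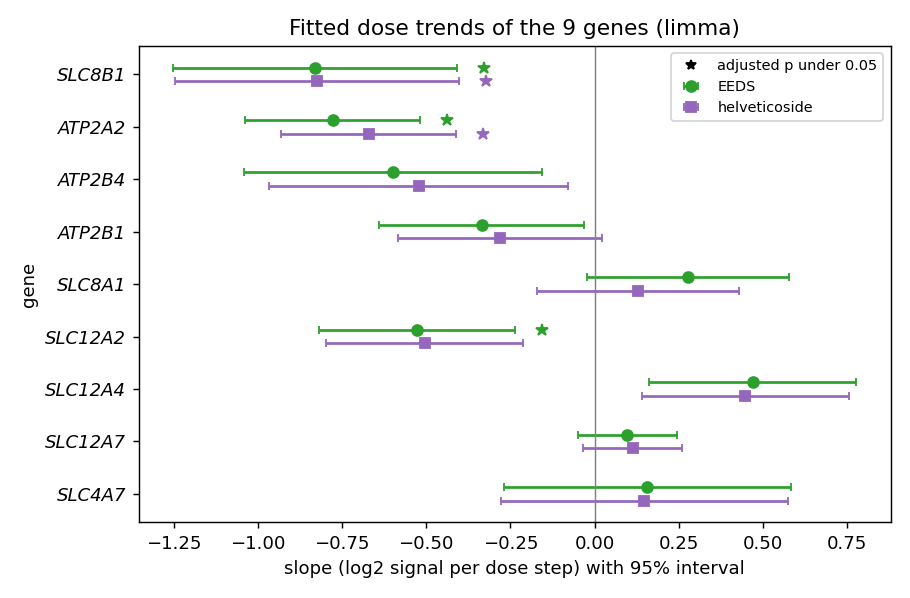
Fitted slope of log2 signal per dose step (horizontal axis) with its 95% interval from limma for each of the 9 genes (vertical axis), with circles for EEDS and squares for helveticoside; stars mark an adjusted p under 0.05. The intervals of SLC8B1, ATP2A2, ATP2B4 and SLC12A2 lie below 0 and those of SLC12A4 above 0 for both agents, and 5 of these 10 slopes carry a star.

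ATP2A2 encodes SERCA2, the pump that returns cytosolic calcium to the endoplasmic reticulum, and its 2 probes, both of strong signal, gave opposite answers. It lies on chromosome 12, at 110280616 to 110351093 of GRCh38.p14. The brighter probe by its mean over the 8 arrays, used in all counts above, had log2 signals of 12.57 in the EEDS control and 12.14, 11.39 and 10.23 at 1.25, 5 and 20 μg/mL. It had 12.52 in the helveticoside control and 12.14, 11.57 and 10.48 at 3.75, 15 and 60 nM. Signal was thus lower at each successive dose of both agents, to 5.07-fold below control with EEDS and 4.13-fold below it with helveticoside. The slope was -0.78 per dose step (SE 0.10, adjusted p = 0.0164) with EEDS and -0.67 (SE 0.10, adjusted p = 0.0252) with helveticoside in limma.

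The dimmer ATP2A2 probe, which is assigned to the same RefSeq transcript and was well above background on all 8 arrays, went the other way. Its log2 signals were 11.13, 11.59, 11.64 and 11.66 along the EEDS series, and 10.86, 11.17, 11.33 and 11.40 along the helveticoside series. Each successive dose was higher than the one before it, with log2 ratios of 0.53 and 0.54 at the top doses, under 2-fold in both. In a limma fit over all probes its slopes were 0.16 (SE 0.06, adjusted p = 0.160) and 0.18 (SE 0.06, adjusted p = 0.157), neither past the threshold, while the brighter probe kept adjusted p of 0.0213 and 0.0322. Which transcripts each probe detects could not be settled, because the probe sequences were not used here, and the fall of ATP2A2 is a statement about the brighter probe. With the mean of both probes the log2 ratio was -0.91 at 20 μg/mL EEDS and -0.75 at 60 nM helveticoside, both under 2-fold.

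**Figure D3:**
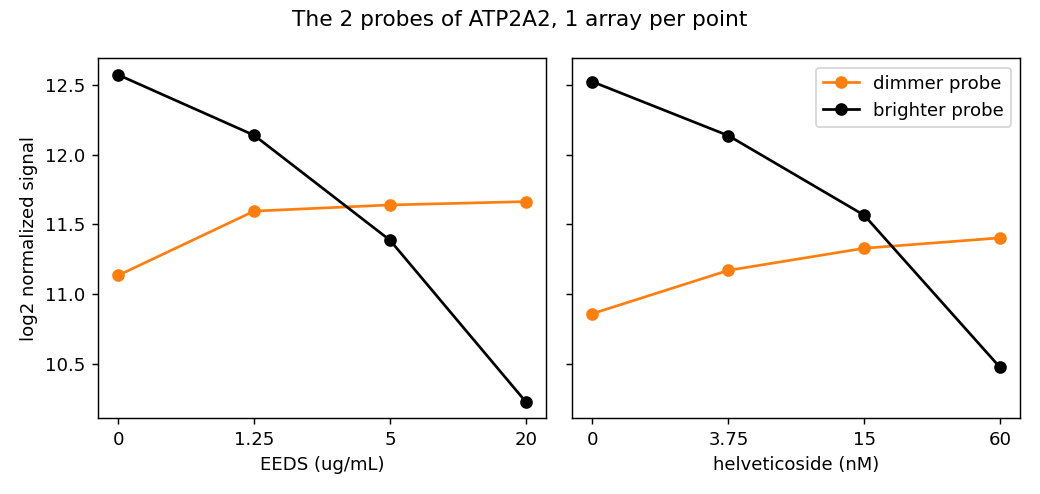
Log2 normalized signal (vertical axis) of the 2 ATP2A2 probes against the dose of EEDS in μg/mL (panel on the left) and of helveticoside in nM (panel on the right), 1 array per point. The brighter probe goes from 12.57 to 10.23 and from 12.52 to 10.48, whereas the dimmer probe goes from 11.13 to 11.66 and from 10.86 to 11.40.

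SLC8B1 encodes NCLX, the exchanger by which mitochondria release calcium against sodium, and it was lower at both top doses. It lies on chromosome 12, at 113298771 to 113335109, and was measured by 1 probe. Its log2 signal was 9.41 in the EEDS control and 8.83, 8.07 and 6.89 at 1.25, 5 and 20 μg/mL. It was 9.07 in the helveticoside control and 9.08, 8.20 and 6.62 at 3.75, 15 and 60 nM. The log2 ratios were -0.58, -1.34 and -2.51 with EEDS and 0.01, -0.87 and -2.45 with helveticoside. The lowest dose of EEDS thus lay below its own control, but the contrast with the lowest dose of helveticoside depended on the processing and the control. At 3.75 nM the ratio was negative under 6 of 10 alternatives. Against the other series' control the ratios at the lowest doses were -0.24 with EEDS and -0.33 with helveticoside. The top doses were 5.71-fold and 5.48-fold below control. The size depended on the processing, with a log2 ratio at 60 nM helveticoside of -1.72 on the signal as scanned, -1.76 on normexp values and -1.53 on the authors' processed values, and one at 20 μg/mL EEDS of -1.93 on the signal as scanned. The slopes were -0.83 (SE 0.17, adjusted p = 0.0334) with EEDS and -0.82 (SE 0.17, adjusted p = 0.0400) with helveticoside in limma.

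ATP2B4 and ATP2B1 encode PMCA4 and PMCA1, pumps that expel calcium through the plasma membrane. ATP2B4, on chromosome 1 at 203626832 to 203744081, had log2 signals of 9.88, 10.10, 8.91 and 8.28 along the EEDS series and 9.67, 10.00, 9.10 and 8.23 along the helveticoside series. In both series the lowest dose lay above the control and the top dose lowest, 3.03-fold below control with EEDS and 2.71-fold with helveticoside. Neither slope passed the threshold in limma, at -0.60 (SE 0.18, adjusted p = 0.0774) and -0.52 (SE 0.18, adjusted p = 0.121). On the authors' processed values the log2 ratio of ATP2B4 at 60 nM helveticoside was -0.97, under 2-fold. The other probes of ATP2B4 were well above background on 1 and 2 of the 8 arrays and gave no usable level.

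ATP2B1, on chromosome 12 at 89588049 to 89709366, had log2 signals of 10.45, 10.81, 10.21 and 9.53 along the EEDS series and 11.25, 11.21, 10.91 and 10.42 along the helveticoside series. Its controls differed by 0.80, more than those of any other of the 9 genes, and each top dose was the lowest array of its series. The top doses were 1.89-fold and 1.78-fold below control, with slopes of -0.34 (SE 0.12, adjusted p = 0.121) and -0.28 (SE 0.12, adjusted p = 0.197) in limma. With the control of the other series in place of its own, the log2 ratio of ATP2B1 was -1.72 at 20 μg/mL EEDS and -0.034 at 60 nM helveticoside. A second ATP2B1 probe of weak signal had log2 ratios of -0.42 at 20 μg/mL EEDS and 0.25 at 60 nM helveticoside.

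SLC8A1 encodes NCX1, the sodium-calcium exchanger of the plasma membrane best known from heart muscle, and it was close to the background of these arrays. It lies on chromosome 2, at 40097270 to 40512435. Its brightest probe had log2 signals of 5.68, 5.63, 5.79 and 6.55 along the EEDS series, and 6.36, 6.32, 6.24 and 6.81 along the helveticoside series, where the 3.75 nM value was not well above background. The top dose was the highest array of each series, 1.83-fold above control with EEDS and 1.37-fold with helveticoside. These sizes depended on the processing and on the control, and the controls differed by 0.67. At 20 μg/mL EEDS the log2 ratio of 0.87 became 0.38 on the signal as scanned and 0.36 with 75th percentile scaling. It was 0.20 against the other series' control. At 60 nM helveticoside it ran from 0.17 to 1.13 over the alternatives. The slopes were 0.28 (SE 0.12, adjusted p = 0.177) and 0.13 (SE 0.12, adjusted p = 0.581) in limma. Both other probes were also higher than control at the top doses, by 0.27 and 0.31 (EEDS) and 0.62 and 0.59 (helveticoside) on the log2 scale, although in the helveticoside series they were well above background on 2 arrays and on none.

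**Figure D4:**
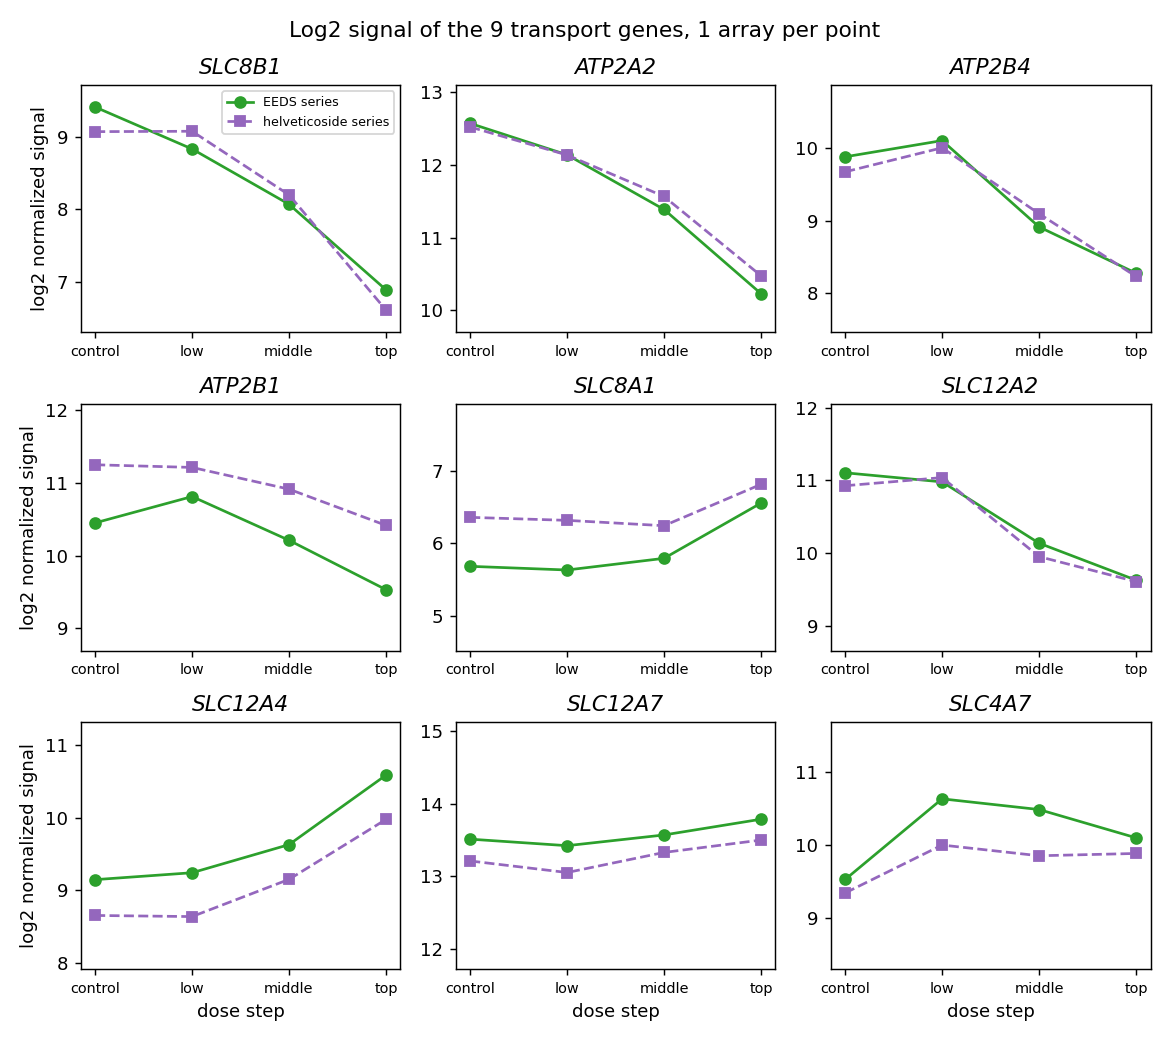
Log2 normalized signal (vertical axis, spanning the same number of log2 units in every panel) of the 9 genes at each dose step (horizontal axis), with circles for the EEDS series, squares for the helveticoside series and 1 array per point. SLC8B1 and ATP2A2 span the widest range, from 9.41 to 6.89 and from 12.57 to 10.23 with EEDS, while SLC12A7 stays between 13.05 and 13.78 over all 8 arrays.

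Of the carriers that set cell chloride, the importer was lower and an exporter higher at the top doses. SLC12A2, on chromosome 5 at 128083766 to 128189677, encodes NKCC1, which imports sodium, potassium and chloride together. Its log2 signal was 11.11 in the EEDS control and 10.98, 10.14 and 9.63 at 1.25, 5 and 20 μg/mL, and it was 10.93 in the helveticoside control and 11.04, 9.95 and 9.61 at 3.75, 15 and 60 nM. The lowest doses stayed within 0.13 of their controls on the log2 scale, and the main step lay between the low and the middle dose, at -0.84 with EEDS and -1.09 with helveticoside. The top doses were 2.78-fold and 2.49-fold below control. The slopes were -0.53 (SE 0.12, adjusted p = 0.0400) with EEDS and -0.50 (SE 0.12, adjusted p = 0.0516) with helveticoside in limma, so that near-equal slopes lay on either side of the threshold.

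SLC12A4, on chromosome 16 at 67943474 to 67968694, encodes KCC1, a potassium-chloride cotransporter through which swollen cells lose salt. Its log2 signal was 9.15, 9.24, 9.63 and 10.59 along the EEDS series and 8.66, 8.64, 9.15 and 9.98 along the helveticoside series. The middle and top doses lay above their control in both series, the top doses 2.71-fold and 2.50-fold. The slopes of 0.47 (SE 0.12, adjusted p = 0.0588) and 0.45 (SE 0.12, adjusted p = 0.0763) did not pass the threshold in limma. Against the control of the other series its log2 ratio at 60 nM helveticoside was 0.83, under 2-fold. The slope of SLC12A4 with EEDS did pass it in the fits on the signal as scanned, on normexp values, with 75th percentile scaling, with quantile normalization within each series, on the authors' processed values and over genes with such signal on every array.

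SLC12A7 encodes KCC4, another potassium-chloride cotransporter. Its log2 signals were 13.51, 13.42, 13.57 and 13.78 along the EEDS series and 13.21, 13.05, 13.33 and 13.50 along the helveticoside series. The top doses were 1.21-fold and 1.22-fold above control, and the slopes of 0.10 (SE 0.06, adjusted p = 0.324) and 0.11 (SE 0.06, adjusted p = 0.273) did not pass the threshold in limma. Their 95% intervals were -0.05 to 0.24 with EEDS and -0.03 to 0.26 with helveticoside. These overlapped the intervals of SLC12A4, 0.16 to 0.78 and 0.14 to 0.76, and a difference between the 2 genes was not tested. A second SLC12A7 probe, well above background on 2 of the 4 helveticoside arrays, had log2 ratios of 0.46 at 20 μg/mL EEDS and -0.19 at 60 nM helveticoside, and the mean of both probes gave -1.31 at 3.75 nM.

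SLC4A7 encodes NBCn1, which brings bicarbonate into the cell with sodium, and it had a pattern of its own among the 9 genes. Its log2 signal was 9.53 in the EEDS control and 10.64, 10.49 and 10.10 at 1.25, 5 and 20 μg/mL, and it was 9.34 in the helveticoside control and 10.00, 9.85 and 9.89 at 3.75, 15 and 60 nM. All 6 treated arrays lay above both controls, and the lowest dose was the highest array of each series. The log2 ratios were 1.11, 0.96 and 0.57 with EEDS and 0.66, 0.51 and 0.54 with helveticoside, the first of them 2.16-fold. A straight line over dose does not describe such values, and the slopes were 0.16 (SE 0.17, adjusted p = 0.628) and 0.15 (SE 0.17, adjusted p = 0.683) in limma. The step at the lowest dose was not tested. Its log2 ratio at 1.25 μg/mL EEDS lay between 1.02 and 1.29, and that at 3.75 nM helveticoside between 0.47 and 0.66, over 10 alternative ways of processing.

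The agents were compared as run, since a dose step of the extract in μg/mL and one of helveticoside in nM are not matched amounts. The difference of the slopes (helveticoside minus EEDS) was called for 0 of the 9 genes and 0 of all 19041 genes in limma, where 2.76% of all genes had an unadjusted p under 0.05. Among the 9 the differences ran from -0.15 (SLC8A1, SE 0.17) to 0.11 (ATP2A2, SE 0.15), and the smallest unadjusted p was 0.419 in limma. The 95% intervals were wide. That of SLC8B1 ran from -0.59 to 0.60 per dose step, that of ATP2B4 from -0.55 to 0.70 and that of SLC12A7, the narrowest, from -0.19 to 0.23, so a difference of more than 0.5 per step in either direction lay within the intervals of SLC8B1 and ATP2B4. The controls of the series themselves differed, with the helveticoside control lower than the EEDS control for 7 of the 9 genes by 0.05 to 0.49 on the log2 scale and higher for SLC8A1 (0.67) and ATP2B1 (0.80).

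To place the 5 genes past 2-fold at both top doses beside their promoters, the 250 bases before a RefSeq transcription start were read from RefSeq's windows of GRCh38.p14, 1 window for each gene. Starts used in these cells were not measured. For SLC12A4 and ATP2A2, which have several windows, the one shown was chosen after its motifs were seen for ATP2A2 and as the most upstream for SLC12A4. Capitals mark every match on either strand to 8 motifs. The GC box, which Sp1 binds, was searched as GGGCGG. The motif of CCAAT-binding factors was searched as CCAAT. The cAMP response element was searched as TGACGTCA. The site of AP-1 was searched as TGAGTCA, and its reverse complement thereby too. The site of EGR1 was searched as GCGTGGGCG, the E-box as CACGTG and the TATA box as TATAAA. The endoplasmic reticulum stress response element was searched in its consensus form, which contains a CCAAT motif. An EGR1 match that is followed by G overlaps a GC box.
SLC8B1, chr12:113335110-113335359, minus strand: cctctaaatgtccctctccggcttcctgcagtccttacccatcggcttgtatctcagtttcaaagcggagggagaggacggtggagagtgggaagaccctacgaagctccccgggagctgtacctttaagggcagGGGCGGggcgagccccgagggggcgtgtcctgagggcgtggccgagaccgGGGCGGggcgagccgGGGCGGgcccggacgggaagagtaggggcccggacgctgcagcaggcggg
ATP2A2, chr12:110280997-110281246, plus strand: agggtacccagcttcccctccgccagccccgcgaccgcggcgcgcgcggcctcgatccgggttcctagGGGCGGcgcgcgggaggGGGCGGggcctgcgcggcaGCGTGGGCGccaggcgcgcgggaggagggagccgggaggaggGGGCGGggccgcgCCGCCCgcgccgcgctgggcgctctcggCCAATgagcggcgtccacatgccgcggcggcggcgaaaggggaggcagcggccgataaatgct
ATP2B4, chr1:203626582-203626831, plus strand: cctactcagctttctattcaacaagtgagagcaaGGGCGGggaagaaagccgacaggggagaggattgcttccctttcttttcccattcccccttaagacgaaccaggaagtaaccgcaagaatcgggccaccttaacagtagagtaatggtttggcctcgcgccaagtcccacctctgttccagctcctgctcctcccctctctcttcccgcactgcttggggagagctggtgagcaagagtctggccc
SLC12A2, chr5:128083516-128083765, plus strand: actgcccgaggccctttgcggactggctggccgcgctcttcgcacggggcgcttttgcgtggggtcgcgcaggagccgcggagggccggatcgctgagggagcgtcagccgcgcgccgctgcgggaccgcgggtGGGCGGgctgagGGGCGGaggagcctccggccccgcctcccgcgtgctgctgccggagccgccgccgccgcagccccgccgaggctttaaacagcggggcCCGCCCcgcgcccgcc
SLC12A4, chr16:67968695-67968944, minus strand: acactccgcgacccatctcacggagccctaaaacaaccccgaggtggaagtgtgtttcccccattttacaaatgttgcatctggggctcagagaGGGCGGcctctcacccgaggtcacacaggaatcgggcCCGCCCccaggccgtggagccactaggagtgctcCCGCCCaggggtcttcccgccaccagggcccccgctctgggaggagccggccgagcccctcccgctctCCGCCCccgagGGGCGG

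The GC box was found in each window shown, with 3 matches in SLC8B1, 4 in ATP2A2, 1 in ATP2B4, 3 in SLC12A2 and 5 in SLC12A4, and 42.6% of all 35116 promoter windows of this length held at least 1. It was thus present both in genes that were lower and in the gene that was higher, and also in the window of SLC12A7 (4 matches), which changed little. The ATP2A2 window, which lies inside the gene downstream of the first start that RefSeq gives, was picked with its motifs in view, and the window at the first start holds no match to any of the motifs. The one shown also held 1 CCAAT motif (in 32.0% of all windows) and 1 EGR1 match (in 0.720%). The EGR1 match lay 146 bases before the start. No window of the 9 genes held a cAMP response element, an AP-1 site or the endoplasmic reticulum stress response element in this form, which 1.65%, 4.20% and 0.0740% of all windows held, and the absence says only that these letters are not in these windows. The GC content was 55.6% for ATP2B4, under the median of 58% over all windows, and 68.4% to 80.4% for the other 4 windows.

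Many genes on the arrays shared these dose patterns. Over the 6 log2 ratios, and among 11494 other genes well above background on all 8 arrays, the genes most like SLC8B1 were EMILIN2 and AMZ2 (Pearson r of 0.999 each), and 782 genes had an r of at least 0.95 with it. Those most like ATP2A2 (brighter probe) were MTX1 and ZDHHC8 (0.999 each, 848 genes at 0.95 or above). Those most like SLC12A2 were AP2M1 (0.998) and CASC15 (0.997), with 443 genes. Those most like ATP2B4 were MIF4GD (0.999) and EFR3B (0.998), with 672 genes, and those most like SLC12A4 were BFAR and PEX13, with 733 genes. The ratios of a series share 1 control, and 6 points leave a high r common, so these are descriptions of shape.

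The families around the 9 genes were taken as 10 lists of 83 related genes, of which 82 were matched and 45 were well above background on all 8 arrays. Of these 45, 6 were higher by over 2-fold and 4 lower at 20 μg/mL EEDS (14.3% and 16.2% of all genes with such signal), and 5 were higher and 3 lower at 60 nM helveticoside (10.9% and 13.3%). Their median log2 ratio was 0.09 at 20 μg/mL EEDS and 0.21 at 60 nM helveticoside, against -0.01 and 0.02 over all such genes. Of the 82, 8 rose and 5 fell along the EEDS doses and 8 rose and 3 fell along the helveticoside doses at an adjusted p under 0.05 in limma. Over all genes, 7.25% rose and 7.85% fell with EEDS, and 5.47% rose and 5.8% fell with helveticoside. With both agents the related genes thus had a larger share rising and a smaller share falling than all genes. The counts are small, and that difference was not tested. The medians of the 9 at these doses, -0.92 and -0.83, lay below those of the related genes and of all such genes. No test of that difference was made. Both medians of the 9 are the ratios of ATP2B1, and against the other series' control they became -1.30 and -0.034.

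Among relatives of the chloride carriers, SLC12A9, a cation-chloride cotransporter family member, fell with both agents. Its log2 ratio was -2.16 at 20 μg/mL EEDS and -1.79 at 60 nM helveticoside, with slopes of -0.69 (adjusted p = 0.0183) and -0.62 (adjusted p = 0.0263) in limma. SLC4A11, a membrane transporter of the bicarbonate transporter family, also fell with both, with log2 ratios of -1.82 and -1.91 and slopes of -0.63 (adjusted p = 0.0139) and -0.65 (adjusted p = 0.0167). Of the 5 kinases of the cation-chloride cotransporters well above background on all 8 arrays, 1 was higher by over 2-fold and 1 lower with EEDS and none with helveticoside. None of the 9 sodium-proton exchangers, 6 with such signal, was called in either dose trend or past 2-fold at either top dose. Of all genes with such signal, 14.3% were over 2-fold higher and 16.2% lower with EEDS, and 10.9% and 13.3% with helveticoside. Among all genes, 7.25% rose and 7.85% fell with EEDS, and 5.47% and 5.8% with helveticoside.

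Among relatives of the calcium carriers, ORAI1, the pore of store-operated calcium entry, rose with both agents. Its log2 ratio was 1.45 at 20 μg/mL EEDS and 1.67 at 60 nM helveticoside, with slopes of 0.46 (adjusted p = 0.0144) and 0.54 (adjusted p = 0.0165) in limma. ITPR1, a calcium release channel of the endoplasmic reticulum, had log2 ratios of -1.39 and -1.36, and its slopes of -0.47 did not pass the threshold (adjusted p = 0.0664 and 0.0777 in limma). Of 8 other genes of calcium pumps and their regulators, 4 were well above background on all 8 arrays. Of these 4, 0 were more than 2-fold lower at either top dose, and 0 (EEDS) and 1 (helveticoside) were higher by that much. Their median log2 ratios were 0.09 and 0.36. Of all genes with such signal, 16.2% (EEDS) and 13.3% (helveticoside) were lower by over 2-fold, and 14.3% and 10.9% higher. None of the 6 mitochondrial calcium genes with signal on all 8 arrays was more than 2-fold lower at either top dose, where 16.2% (EEDS) and 13.3% (helveticoside) of all genes with such signal were, and 1 of the 6, MICU3, was more than 2-fold higher with EEDS (log2 ratio 1.07). Neither SLC8A1 nor any of the 7 other exchangers of sodium and calcium was well above background on all 8 arrays, which left SLC8B1 as the exchanger of this kind with a measurable level throughout.

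Of the CLCN genes, CLCN6 rose with both agents, with log2 ratios of 1.28 and 1.66 and slopes of 0.44 (adjusted p = 0.0152) and 0.56 (adjusted p = 0.0165) in limma. CLCN4 had log2 ratios of 1.06 and 1.62 without a called slope (adjusted p = 0.323 and 0.139). They were the 2 genes past 2-fold higher at each top dose among 6 with signal on all 8 arrays in their list, of sodium channels, chloride channels and CLCN genes. Of these 6, 0 were lower by that much. Of all 12 matched genes of the list, 1 was over 2-fold lower with EEDS and 0 with helveticoside, where 14.5% and 12.8% of all genes were. ATP1B1, which encodes a beta subunit of the sodium pump on which these carriers depend, rose with log2 ratios of 1.19 and 1.35 (adjusted p = 0.0269 and 0.0231 in limma). ATP1B1 was the only gene past 2-fold among the 5 pump genes with signal on all 8 arrays. None of the 5 was more than 2-fold lower at either top dose. Of all genes with such signal, 16.2% (EEDS) and 13.3% (helveticoside) were lower by that much, and 14.3% and 10.9% higher.

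**Figure D5:**
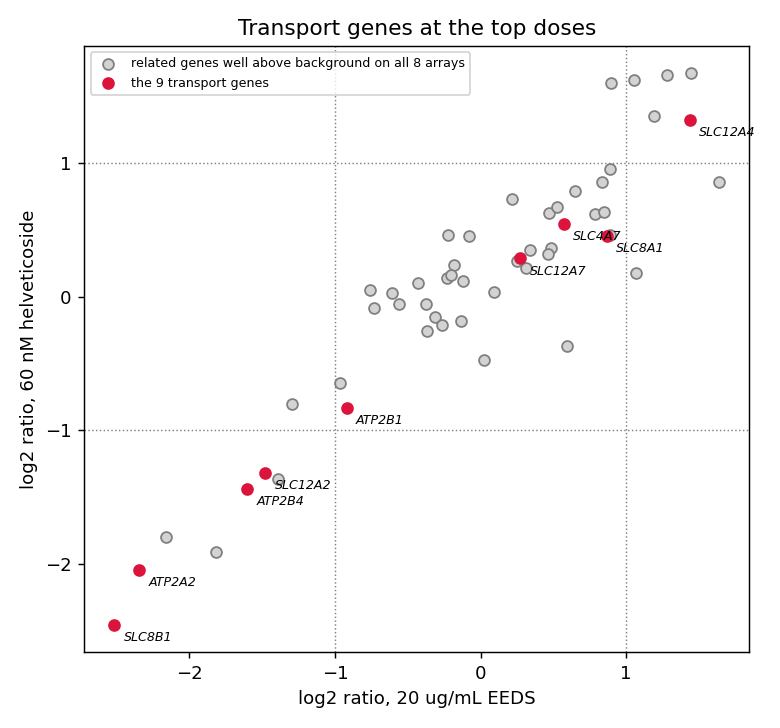
Log2 ratio at 60 nM helveticoside (vertical axis) against that at 20 μg/mL EEDS (horizontal axis) for the 9 genes (filled red) and the 45 related genes well above background on all 8 arrays (grey), with dotted lines at 2-fold. SLC8B1 (-2.51 and -2.45) and ATP2A2 (-2.34 and -2.05) lie farthest down on the left, and SLC12A4 (1.44 and 1.32) farthest up of the 9.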

How the data were processed

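RNA of A549 cells was hybridised to 8 one-colour arrays, each with RNA pooled from 3 cultures. The files deposited for the arrays hold intensity values from the scanner software, spot by spot (median signal, local background, background-subtracted processed signal, and outlier and detection calls) and a table of processed intensity values, which from its values is background-subtracted and normalized within each series. Which dye was read is not settled, since the labels name Cy5 and the columns are those of the green channel. Control spots and outlier spots were left out (246 to 331 probe spots per array), spots of a probe were averaged, and log2 values were taken after quantile normalization across all 8 arrays. Values under 1.4 times the local background were raised to the lowest detected signal of their array if below it, and a gene was kept where it passed that limit on at least 1 array of a series. Probes were matched to symbols by RefSeq accession (24827 of 34127 probes, 19062 genes), and each of the 4801 genes with several was represented by its brightest probe on average.

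Trends were fitted with limma 3.58.1 (R 4.3.3, statmod 1.5.0) as 1 line per series, with 4 residual degrees of freedom and Benjamini-Hochberg adjustment over all genes, so the p-values measure the scatter of single arrays about the lines. Tested on simulated data of 19041 genes with 200 changed, the fit made 102 calls, of which 98 were changed genes. It found 78% of slopes of 1 and 20% of slopes of 0.5 per step. Far more genes were called in the real data (2875 and 2146), and the simulated noise was independent between values. The shares found in the simulation therefore need not hold for these data. Other values came from Python 3.11.15, numpy 2.4.6 and pandas 2.3.3. All 9 genes are named. A related gene is named where it was well above background on all 8 arrays and past 2-fold in the same direction at both top doses, and the 2 genes most like each gene of the 9 that met this are named too; MICU3 is named after its value was seen; KRT7, KRT8, KRT18, EPCAM, CDH1, PTPRC, COL1A1 and DES are named as markers. The genes, lists and tests were chosen with earlier results of these data known. Alternatives covered background correction, scaling, filters, probes, controls and left-out arrays.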

Additional observations from a re-analysis of the deposited data

How the results depend on the processing

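With 1 array per group, the calls of the dose trends were the least stable values. The 3 calls of the 9 genes with EEDS became 5 on the signal as scanned, on normexp values, with 75th percentile scaling, on the authors' processed values and over genes well above background on all 8 arrays, adding SLC12A4 and ATP2B4, and became 0 when the control was set against the 2 higher doses alone or when the 4 arrays of the series were fitted alone. The 2 calls with helveticoside became 4 on the signal as scanned, on normexp values and over genes well above background on all 8 arrays, adding SLC12A2 and SLC12A4, 1 with the mean of all probes, and 0 with the 2 higher doses alone or the 4 arrays alone. Leaving out each array in turn gave 0 to 3 calls with EEDS and 0 to 1 with helveticoside. Fits on fewer arrays leave fewer degrees of freedom, and for the other settings the cause was not tested. With the mean of all probes, 2 in place of 4 of the genes were more than 2-fold lower at 60 nM helveticoside and 3 in place of 4 at 20 μg/mL EEDS, and on the authors' processed values 3 were at 60 nM. Against the other control or the mean of both, 5 were at 20 μg/mL. Of the 9, ATP2A2 and not SLC8B1 had the lowest ratio at both top doses on the signal as scanned (-2.15 and -1.95) and on normexp values (-2.15 and -1.96), and at 60 nM on the authors' processed values (-1.89).

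The dimmer ATP2A2 probe, an alternative chosen after seeing the data, reversed the log2 ratio of ATP2A2 at all 6 doses, to 0.46, 0.50 and 0.53 with EEDS and to 0.31, 0.47 and 0.54 with helveticoside in order of dose. Slopes that changed sign were those of SLC4A7 with EEDS without the EEDS control (-0.27), SLC4A7 with helveticoside without the helveticoside control (-0.058) and SLC8A1 with helveticoside without the 60 nM array (-0.057); none was called. Over all left-out arrays these slopes ran from -0.27 to 0.48, from -0.058 to 0.26 and from -0.057 to 0.25. At the top doses the ratios of the 9 genes kept their sign under all other settings tried (9 for SLC8A1 and 10 for the others), except that of SLC12A7 at 60 nM helveticoside against the other series' control (-0.013). Signs were less stable at lower doses. At 3.75 nM helveticoside the sign changed under 7 of 10 settings for ATP2B1, 6 of 10 for SLC8B1, 6 of 9 for SLC8A1 and 3 of 10 for SLC12A4. It changed under 1 of 10 each for SLC12A2 and SLC12A7, and under none for SLC4A7, ATP2A2 and ATP2B4. At 15 nM it changed under 6 of 9 settings for SLC8A1, and at 5 μg/mL EEDS under 3 of 9. Scaling to the 75th percentile moved the median of all genes by -0.20, -0.21 and -0.36 at the EEDS doses and by 0.14, -0.12 and -0.18 at the helveticoside doses, in order of dose. Over all genes, 2875 slopes were called with EEDS and 2146 with helveticoside, against 4593 and 1635 on the authors' processed values and 107 and 89 with the 2 higher doses alone. No paired analysis was possible because each group was 1 array and the replicate numbers are only names. Weak signal limits SLC8A1, the second ATP2B1 probe and the other ATP2B4 probes.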

Other observations

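Opposite probes of a gene, as in ATP2A2, were uncommon. Of 2468 genes with at least 2 probes well above background on all 8 arrays, 320 had a probe more than 2-fold lower at both top doses, and 13 of these, ATP2A2 included, also had a probe more than 0.3 higher on the log2 scale at both, a limit chosen after the values were seen. None of the 13 had a falling and a rising probe each called for both agents in limma.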
